A study of Mus musculus with 24 samples.

Results

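Macrophages can be pushed toward a pro-inflammatory state, called M1, or toward a state linked to repair, called M2, and these states are usually described by what sets them apart. Here the changes that both states had in common were measured: genes that differed from unstimulated macrophages in the same direction in M1 and in M2. The data were 12 of the 24 arrays of the series, 4 of M1 cultures, 4 of M2 cultures and 4 of unstimulated M0 cultures, chosen by their labels. All came from bone marrow of male C57BL/6 mice, 10 weeks old and not subjected to sepsis, grown for 7 days in RPMI medium with 20% supernatant of L929 cells, a source of macrophage growth factor, and 10% foetal bovine serum. M1 cultures received interferon-gamma at 50 ng/mL with lipopolysaccharide (LPS) at 10 ng/mL on day 3, M2 cultures received interleukin-10 (IL-10) at 20 ng/mL on day 3, and M0 cultures were left unpolarized. A second unstimulated group, M0 post-sepsis (4 arrays, marrow of mice 14 days after sepsis), was not used to find the shared genes and served as a second control.

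The study compared macrophages of mice that had survived sepsis with those of naive mice, in tumours and in marrow cultures. The labels describe 2 culture experiments of 3 samples for each marrow group, from which the submitters picked the 4 best per group for hybridisation. They do not tie an array to an experiment, so the p-values measure only the spread among these chosen samples, which may be partly technical.

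As background, cytokines act on macrophages through receptors that switch on JAK kinases and STAT transcription factors, and LPS acts through a Toll-like receptor and NF-kB. Each pathway also induces its own inhibitors, among them the SOCS family, which bind cytokine receptors or JAK kinases and limit further signalling. Resting macrophages grown in the growth factor CSF-1 still divide, clear dead cells and carry receptors such as CX3CR1, and on stimulation they can present antigen on MHC class II and consume arginine through nitric oxide synthase or arginase.

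Each value below is a log2 signal after subtracting that array's 75th percentile, so 0 stands for that percentile and a difference of 1 for a 2-fold change. On the 12 arrays the 75th percentile of the raw signal lay between 357 and 635 units, 57.4% to 70% of spots were well above background and no spot was saturated. In M0 post-sepsis replicates 1 to 4 that percentile was 308.9, 479.7, 236.5 and 462.6, with 57.5% to 65.7% of spots well above background. Replicates 1 and 3 of that group were on slide 2 and replicates 2 and 4 on slide 3, so it had no array on slide 1. Signal of coding probes minus that of long non-coding RNA probes was 1.64 and 1.65 in replicates 1 and 3. In replicates 2 and 4 it was 2.53 and 2.58. It was 1.91 to 2.43 in M0 naive, 2.19 to 2.46 in M1 and 2.18 to 2.51 in M2. How this split within M0 post-sepsis affects the values against that control was not tested. Arrays of 1 group correlated across genes at 0.915 to 0.992 in M0 naive, 0.957 to 0.991 in M1 and 0.95 to 0.984 in M2. The macrophage identity list was well above background for all 22 of its genes, while T and NK cell markers summed to 6.29 to 18.2, against 1750 to 2730 for the macrophage list, on a scale where 1 is an array's 75th percentile. Neutrophil markers summed to 130 to 701 in M0 naive, 291 to 575 in M1 and 211 to 550 in M2, and dendritic cell markers to 233 to 461, 286 to 394 and 258 to 404. Osteoclast markers summed to 9.9 to 15.6 in M0 naive, 13.5 to 17.5 in M1 and 86.8 to 96.6 in M2, and erythroid and megakaryocyte markers to 76.6 to 135, 23.1 to 26.1 and 162 to 204, with 3 of the 10 genes of that list well above background on no array. Their part in the shared genes was not tested.

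A gene counted as shared when its difference from M0 naive had an adjusted p under 0.05 in M1 and in M2 (limma, Benjamini-Hochberg over 30208 genes) with the same sign in both. By this rule 2484 genes (8.22%) were shared: 1004 genes (3.32% of those tested) were higher in both and 1480 (4.9%) were lower in both, of which 737 and 1019 had a RefSeq symbol. Taken singly, M1 differed from M0 naive at 9946 genes (32.9%), with 15.1% higher and 17.8% lower, and M2 at 5959 (19.7%), with 7.63% higher and 12.1% lower. A change of at least 2-fold in both was measured at 895 shared genes (2.96%), made up of 334 shared higher genes (1.11%) and 561 shared lower genes (1.86%). At 971 genes (3.21%) both states passed in opposite directions, 561 of them higher in M1. Of the 30208, 16285 had a RefSeq symbol, and of these 737 were shared higher and 1019 shared lower. The others, among them single probes with no symbol, also count in the shares over all genes, while the gene lists hold named genes. These shares are the comparison for every list count below. Against M0 post-sepsis they were 3.51% shared higher and 5.43% shared lower. When each array was centred on its median in place of its 75th percentile, the shared genes numbered 734 higher and 605 lower, so the share of higher ones went from 40.4% to 54.8%, and the median change over all genes went from -0.11 to 0.03 in M1 and from -0.07 to 0.03 in M2. That centring also ended the call of 31 results among the genes described here, in M1 Il10ra, Ifnar1, Slamf9, Irf8, Lrp1 and Hdac6, and in M2 Tyk2, Ifnar1, Gch1, H2-T23, Cd83, Cxcr4, Ldha, Eno1, Egr1, Trem2, Irf8, Lrp1, Lpl, C1qa, C1qc, Plk1, Mki67, Cdk1, Bub1, Mcm10, Cdc6, Cd34, Hdac6, Socs3 and Bcl3.

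The mean of both states was a wider criterion. That mean differed from M0 naive at 8521 genes (28.2%), 3438 higher and 5083 lower. Of the 3438, 1004 were shared, 1795 passed in M1 alone, 410 in M2 alone and 192 in both but in opposite directions. Of the 5083 lower, 1480 were shared, 2405 passed in M1 alone, 116 in opposite directions and most of the others in M2 alone. The results that follow rest on the shared genes.

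**Figure D1:**
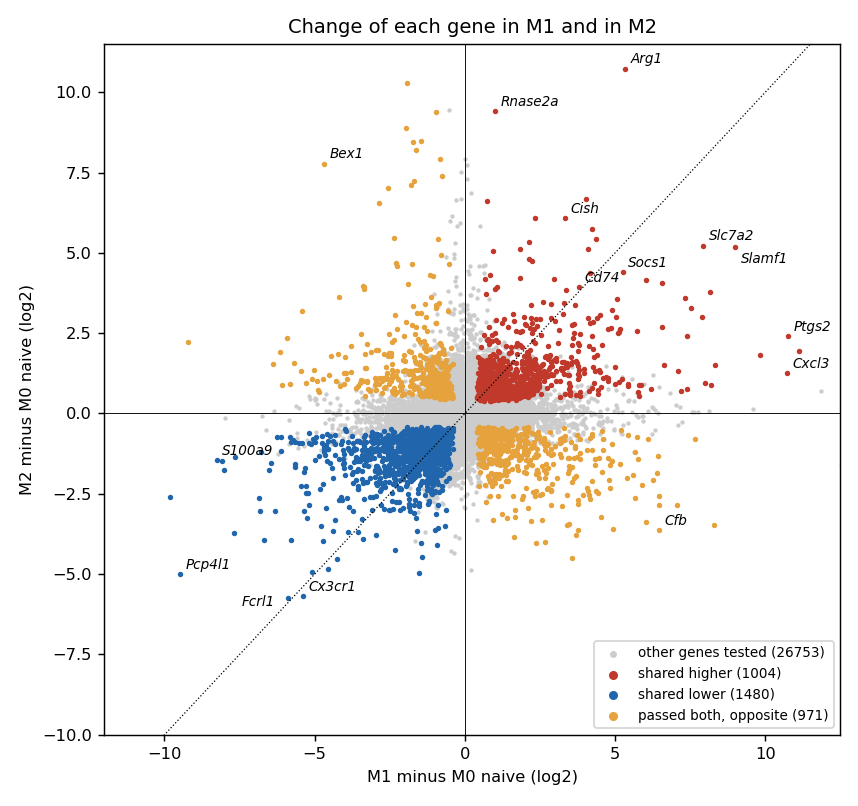
Change of each of the 30208 genes in M1 (horizontal axis, log2) and in M2 (vertical axis, log2), both against the same 4 M0 naive arrays, which places a gene with unusual M0 values along the diagonal. Red points are the 1004 shared higher genes, blue the 1480 shared lower genes and orange the 971 genes that passed both tests in opposite directions. On the dotted line the 2 changes are equal.

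Shared genes were ranked by the smaller of their 2 changes, a gene not well above background in a group being taken by its bound. First of the 15 shared higher genes described was Slc7a2, a transporter that carries arginine into the cell. It read -4.13, -3.92, -3.63 and -4.59 in M0 naive, 3.82, 3.90, 3.78 and 3.98 in M1 and 1.29, 0.91, 1.28 and 1.13 in M2. Its groups did not overlap, and here M1 was the higher of the stimulated states, by 2.72 (95% interval 2.30 to 3.14, adjusted p = 4.17e-07). The change was 7.94 (SE 0.19, adjusted p = 1.40e-10) in M1 and 5.22 (SE 0.19, adjusted p = 9.34e-09) in M2.

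Arg1, which encodes arginase 1 and turns arginine into ornithine, read -5.53, -5.01, -4.02 and -5.74 in the M0 naive arrays, 0.22, 0.43, -0.06 and 0.44 in M1 and 5.79, 5.17, 5.99 and 5.67 in M2. Every M1 array was above every M0 array and every M2 array was above every M1 array. No M0 naive array was well above background, so Arg1 was at least 25.75-fold higher in M1 and at least 1085-fold higher in M2 (adjusted p = 1.57e-07 and 2.96e-09), and M1 minus M2 was -5.40 (95% interval -6.12 to -4.67, adjusted p = 1.26e-07).

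Car2, a carbonic anhydrase, changed by 4.25 in M1 and 5.75 in M2, Pkp2, which encodes the desmosome protein plakophilin 2, by 4.04 and 6.67, and Slc6a12, a transporter of betaine and GABA, by 3.37 and 3.84. Tarm1, an activating receptor of myeloid cells, was below background in M0 naive and at least 57.02-fold and 9.905-fold higher. Serpina3g, an inhibitor of intracellular proteases, and AA467197 rose further in M1, by 8.16 and 7.31 against 3.79 and 3.60 in M2. All 15 genes of this group had M1 and M2 arrays wholly above the M0 naive arrays, which the rule for naming required. Against the M0 post-sepsis arrays 14 of the 15 were again higher in both states, and Ccl7 was not.

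The receptor of IL-1 and a receptor of the SLAM family could be given by bounds only, because no M0 naive array was well above background. Il1r1, the signalling receptor for IL-1, was at least 5.34-fold higher in M1 and 6.226-fold higher in M2, and its M1 and M2 arrays lay within the same range, -2.19, -1.81, -2.30 and -2.07 against -1.65, -2.26, -1.55 and -2.02. Slamf1, a self-binding receptor on immune cells, read 2.57, 2.52, 2.33 and 2.59 in M1 and -1.07, -1.77, -0.93 and -1.46 in M2 and was at least 129-fold and 9.201-fold higher.

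**Figure D2:**
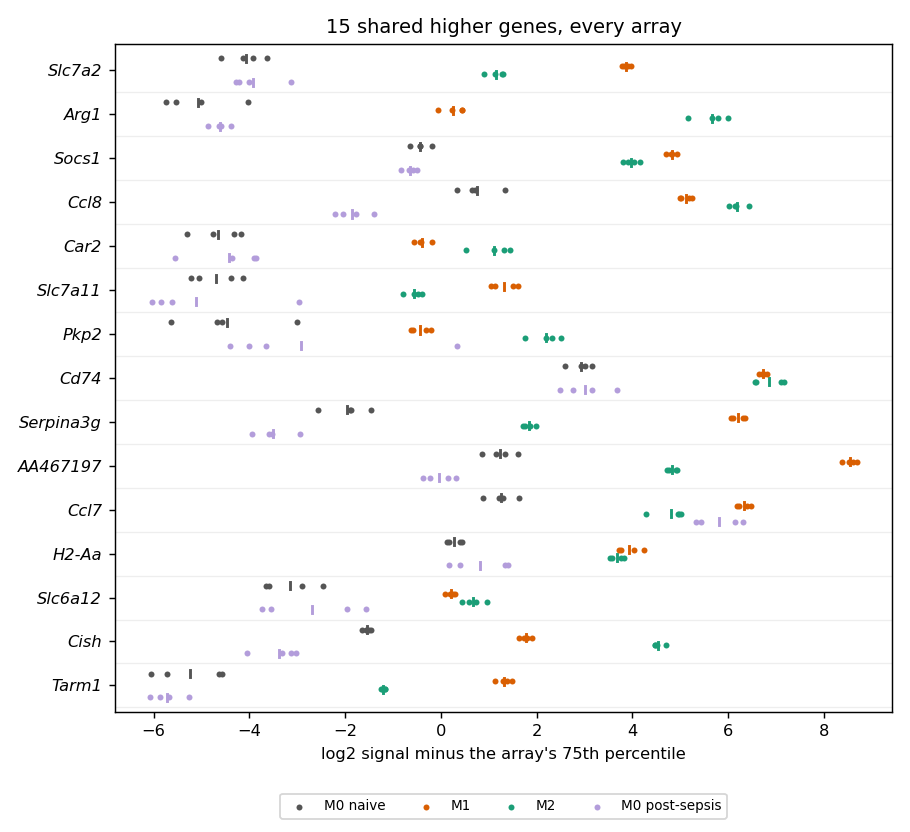
The 15 shared higher genes with the largest smaller change (bounds for genes below background), ordered from the top. Each point is 1 array (4 per group), the short bar is the group mean, and the horizontal axis is the log2 signal minus the array's 75th percentile. M1 and M2 points lie to the right of M0 naive for every gene; the M0 post-sepsis arrays of Ccl7 lie among the stimulated ones. M0 naive values of Arg1 and Tarm1 were not well above background.

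Of the inhibitors of cytokine signalling, Socs1 and Cish were shared higher. Socs1, which binds JAK kinases and blocks them, read -0.19, -0.43, -0.66 and -0.44 in M0 naive, 4.82, 4.70, 4.80 and 4.94 in M1 and 4.15, 3.91, 4.03 and 3.80 in M2. The change was 5.25 (SE 0.14, adjusted p = 2.63e-10) in M1 and 4.40 (SE 0.14, adjusted p = 3.15e-09) in M2, and M1 exceeded M2 by 0.85 (95% interval 0.54 to 1.15, adjusted p = 4.22e-04). Cish, a relative of Socs1 known as a target of STAT5, read -1.56, -1.51, -1.64 and -1.45 in M0 naive, 1.80, 1.74, 1.64 and 1.91 in M1 and 4.70, 4.46, 4.46 and 4.52 in M2. It rose in both and further in M2, by 3.32 (SE 0.12, adjusted p = 1.98e-09) against 6.08 (SE 0.12, adjusted p = 5.24e-11).

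Of the 25 genes listed as SOCS or JAK-STAT parts, 4 were shared higher (Socs1, Cish, Jak2 and Tyk2) and 3 shared lower (Il10ra, Il6ra and Ifnar1), with 4 opposite, and the list's median mean change was -0.05, as against -0.06 over all genes tested. Jak2, the kinase under many cytokine receptors, changed by 2.29 and 1.58, and Tyk2, another of the family, by 1.10 and 0.59, its M2 call being lost in 3 of 12 fits that left out 1 array (adjusted p up to 0.0702, without M2 replicate 4). Il6ra, the IL-6 receptor chain, changed by -2.03 and -1.09, and Il10ra, the receptor chain that binds IL-10, by -0.86 and -1.15. Ifnar1, a chain of the type I interferon receptor, changed by -0.68 and -0.57. Its M2 call was lost in 6 of 12 such fits (adjusted p up to 0.0606, without M0 naive replicate 2), and with all probes averaged its change in M1 was 0.04. Against M0 post-sepsis none of these 3 receptor genes was called lower in both states. Il10ra read 0.55 in M1 and 0.26 in M2, Ifnar1 -0.17 in M1 and -0.06 in M2. Il6ra read -1.10 in M1 and -0.16 in M2. Tyk2 was 0.75 in M2 against that control and did not pass, while Socs1, Cish and Jak2 were shared higher again.

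Nfil3, a transcription factor, and Pim1, a kinase, both known targets of STAT proteins, were shared higher, Nfil3 by 3.12 and 2.60 and Pim1 by 1.91 and 1.14. They were the only shared higher members of 20 listed IL-10 and STAT3 targets. Of all genes 3.32% were shared higher, and of the 16285 with a RefSeq symbol 737. In that list 2 genes were shared lower (Fcgr1 and Il10ra) and 6 were opposite, and the median change in M2 was -0.22. Against M0 post-sepsis 5 of the 20 were shared higher and 1 shared lower. Socs3, the SOCS gene best known as induced by IL-10 through STAT3, was not shared: it read 1.79, 1.43, 1.05 and 1.47 in M0 naive, 7.73, 7.42, 7.36 and 7.59 in M1 and 0.78, 0.54, 0.72 and 0.53 in M2. It rose in M1 and was -0.79 in M2 (adjusted p = 0.00607), the cultures labelled as given IL-10. Bcl3, also an IL-10 target in textbooks, was likewise 1.76 in M1 and -0.69 in M2, although against M0 post-sepsis both genes stood at 0.62 and 0.67 in M2. With median centring neither M2 change against M0 naive passed (Socs3 -0.69, adjusted p = 0.0944, and Bcl3 -0.58, adjusted p = 0.12). Genes that textbooks give as induced by IL-4 were high in the same M2 arrays and not shared with M1, among them Ccl24 at 7.74, Ccl17 at 4.58, Chil3 at 7.03, Retnla at 8.44 and the transcription factor Egr2 at 3.64. The label is used here as given.

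Promoters of 5 shared higher genes are shown because their letters hold a match to a binding motif searched, TTCNNNGAA for STAT proteins, a pair of GAAA separated by any 2 bases for interferon response factors and TGANTCA for AP-1 (both strands). They are RefSeq sequences of build GRCm38.p6, from 250 bases before to 50 after the gene start, in the direction of the gene, with the matches of the motif named for each gene in capitals. Socs1 (chr16:10785487-10785786, minus strand) has 2 overlapping interferon response matches, Cish (chr9:107296409-107296708, plus strand) has 2 STAT matches just after its start, and Serpina3g (chr12:104235897-104236196, plus strand) has 1 STAT match. The neighbouring matrix protease genes Mmp12 (chr9:7347124-7347423, plus strand) and Mmp13 (chr9:7272264-7272563, plus strand), both highest in M2, each have 1 AP-1 match. Mmp12 has 2 promoters in the RefSeq table, and the one with the most matches was chosen for printing. Left in lower case are an interferon response match in Mmp13 and an NF-kB match in Serpina3g.
Socs1: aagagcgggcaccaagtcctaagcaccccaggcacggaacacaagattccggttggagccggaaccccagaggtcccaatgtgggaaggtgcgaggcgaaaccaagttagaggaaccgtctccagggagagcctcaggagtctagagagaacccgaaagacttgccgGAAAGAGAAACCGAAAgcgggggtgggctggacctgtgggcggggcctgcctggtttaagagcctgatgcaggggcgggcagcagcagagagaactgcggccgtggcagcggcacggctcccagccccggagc
Cish: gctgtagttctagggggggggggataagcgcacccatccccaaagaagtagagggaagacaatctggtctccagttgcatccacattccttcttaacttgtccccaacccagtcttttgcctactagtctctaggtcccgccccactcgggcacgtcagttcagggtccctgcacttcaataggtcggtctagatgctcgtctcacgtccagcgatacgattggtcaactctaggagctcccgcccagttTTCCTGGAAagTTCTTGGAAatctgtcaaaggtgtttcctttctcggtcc
Serpina3g: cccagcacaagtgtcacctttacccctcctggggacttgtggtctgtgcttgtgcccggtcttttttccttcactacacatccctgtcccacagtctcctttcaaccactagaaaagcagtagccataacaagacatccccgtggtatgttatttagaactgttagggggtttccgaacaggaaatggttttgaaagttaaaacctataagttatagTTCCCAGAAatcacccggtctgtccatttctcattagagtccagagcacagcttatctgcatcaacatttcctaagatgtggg
Mmp12: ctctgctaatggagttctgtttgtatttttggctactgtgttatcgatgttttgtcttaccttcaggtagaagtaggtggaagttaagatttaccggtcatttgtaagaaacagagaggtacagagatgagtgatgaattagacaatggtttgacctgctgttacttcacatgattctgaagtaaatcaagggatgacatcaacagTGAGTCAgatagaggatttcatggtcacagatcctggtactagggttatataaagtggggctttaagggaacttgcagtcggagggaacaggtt
Mmp13: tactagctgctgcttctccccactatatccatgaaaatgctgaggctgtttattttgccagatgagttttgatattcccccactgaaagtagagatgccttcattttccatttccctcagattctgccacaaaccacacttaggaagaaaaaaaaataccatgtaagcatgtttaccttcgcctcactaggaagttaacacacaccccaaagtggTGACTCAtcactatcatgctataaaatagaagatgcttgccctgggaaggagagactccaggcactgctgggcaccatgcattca
Shares over whole groups of promoters are given for comparison, with no test. Of 737 shared higher genes with a symbol 564 matched the RefSeq table, with 719 promoters, as did 783 of 1019 shared lower genes with 1015 promoters and 12804 of 16285 tested genes with 15983 promoters. TTCNNNGAA was in 6.82% of shared higher, 7.00% of shared lower and 7.36% of all tested promoters, and the interferon response motif in 3.34%, 2.66% and 3.33%. TGANTCA was in 9.04%, 5.52% and 6.11%, the NF-kB motif (GGG, any 2 bases, then TTTCC) in 2.36%, 1.97% and 1.68%, and the E-box CACGTG in 10.6%, 9.16% and 9.01%. A gene with several promoters counts more than once, and a match is not evidence of binding.

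MHC class II displays peptides to helper T cells. Of 12 genes of this group tested, 7 were shared higher and none lower, 1 passed in M1 alone, 1 in M2 alone and 3 in neither, the mean change of the 12 over both states having a median of 2.26, against 3.32% called and a median of -0.06 over all genes. Cd74, the invariant chain that guides class II molecules through the cell, read 3.16, 2.93, 2.60 and 3.01 in M0 naive, 6.65, 6.82, 6.70 and 6.75 in M1 and 7.16, 6.59, 7.11 and 6.56 in M2. The M1 and M2 arrays overlapped each other and lay wholly above M0 naive, and M1 minus M2 was -0.12 (95% interval -0.52 to 0.27, adjusted p = 0.646).

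The class II chains themselves followed. H2-Aa, an alpha chain, read 0.44, 0.17, 0.12 and 0.40 in M0 naive, 4.04, 3.76, 4.25 and 3.71 in M1 and 3.53, 3.83, 3.58 and 3.76 in M2, so that M1 and M2 again overlapped and lay above M0 naive. Its change was 3.66 (SE 0.16, adjusted p = 7.37e-09) and 3.39 (SE 0.16, adjusted p = 6.24e-08). The beta chains H2-Ab1 and H2-Eb1 rose by 4.09 and 3.63 in M1 and by 2.98 and 2.79 in M2, each further in M1 (adjusted p of the difference 6.20e-04 and 9.79e-04). H2-DMa and H2-DMb1, whose product loads peptides, rose by 2.98 and 2.32 in M1 and 2.89 and 1.58 in M2; averaged over its 2 probes H2-DMb1 was 0.54 in M2 and did not pass. Ciita, the master activator of these genes, changed by 2.08 (SE 0.33, adjusted p = 3.32e-04) and 1.90 (SE 0.33, adjusted p = 0.00176). The list had 7 to 8 shared higher members when single arrays were left out.

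Of the class I genes, 3 of 18 were shared higher (Tapbp, Psmb10 and H2-T23), 9 passed in M1 alone and 3 were opposite. Against M0 post-sepsis 9 of the 18 were shared higher. Psmb10, a subunit of the immunoproteasome, rose by 1.16 and 1.09, while Tapbp, which bridges class I molecules to the peptide transporter, rose by 1.93 and 0.86, and the non-classical class I gene H2-T23 by 1.39 and 0.57, the M2 call of H2-T23 being lost with median centring (adjusted p = 0.0509).

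The arginine and itaconate list held 7 shared higher genes of 16, beside 3.32% of all genes, and no shared lower one. Its median mean change was 1.19. Besides Arg1 and Slc7a2, the members were Nos2, Ass1, Arg2, Gch1 and Acod1. Nos2, the inducible nitric oxide synthase, read 0.11, 0.46, 0.41 and 0.53 in M0 naive, 8.91, 8.59, 8.55 and 8.82 in M1 and 2.04, 1.84, 1.85 and 1.80 in M2. All 4 M2 arrays were above all 4 M0 naive arrays, a change of 1.5 (SE 0.14, adjusted p = 2.05e-05), but M1 stood far above both, at 8.34.

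Ass1, which rebuilds arginine from citrulline, rose by 2.75 and 1.17, and Arg2, the mitochondrial arginase, by 4.54 and 0.83. Acod1, which makes itaconate, rose by 5.45 and 0.85. Gch1, which makes the cofactor of nitric oxide synthase, was 1.83 and 0.57, its M2 call being lost in 3 of 12 fits without 1 array (adjusted p up to 0.0644, without M0 naive replicate 2) and with its probes averaged (0.21). Arg1 was the member further raised in M2, and the other 6 were further raised in M1 (adjusted p of M1 minus M2 from 2.20e-11 for Nos2 to 5.95e-05 for Ass1).

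**Figure D3:**
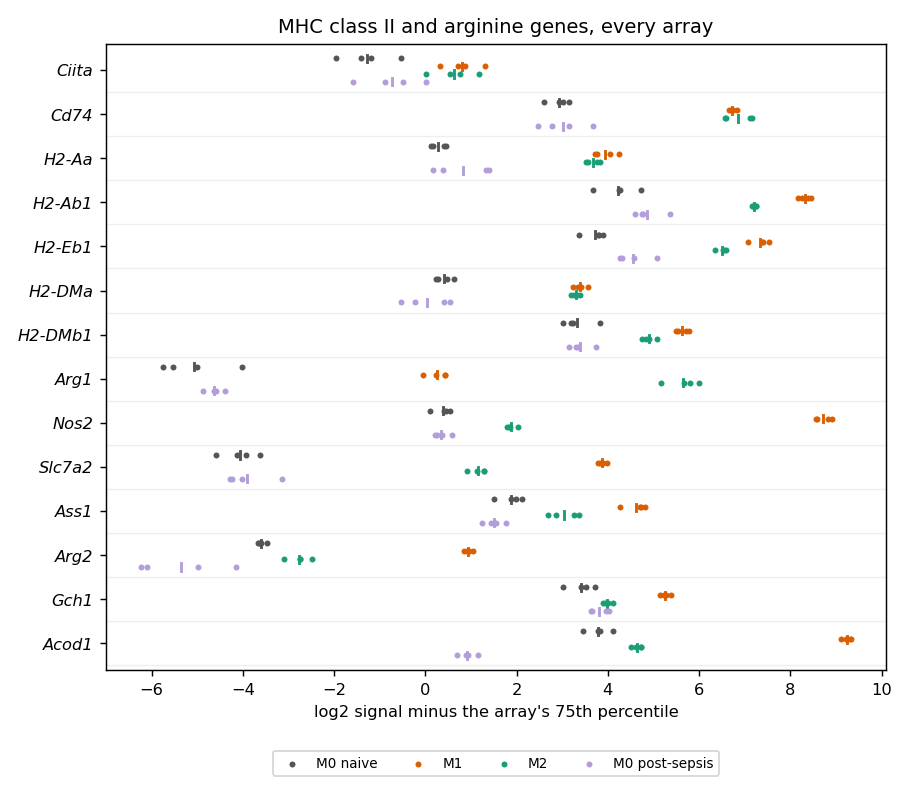
Shared members of the MHC class II list (top 7) and of the arginine and itaconate list (bottom 7). Each point is 1 array (4 per group), the short bar the group mean, and the horizontal axis is the log2 signal minus the array's 75th percentile. For Cd74, H2-Aa and H2-DMa the M1 and M2 points share a range above M0 naive, whereas Nos2, Arg2 and Acod1 are far higher in M1 and Arg1 far higher in M2.

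Among co-stimulators and checkpoint ligands 5 of 22 were shared higher and 4 shared lower. Slamf8, which dampens phagocyte oxidase activity, rose by 5.04 and 2.99. Cd274, the checkpoint ligand PD-L1, rose by 4.60 and 1.12, and Cd40, a receptor for T cell help, by 5.43 and 0.93. Slamf6 was 4.40 and 1.83 on its brighter probe, but its other probe did not pass, and that probe was the brighter one when any 1 M1 array was left out (0.30 in M1 without M1 replicate 2). Icosl, the ligand of the T cell receptor ICOS, read 0.73, 0.68, 0.29 and 0.58 in M0 naive, -1.64, -1.96, -1.77 and -1.72 in M1 and -3.46, -3.25, -3.75 and -4.29 in M2. It fell in both and further in M2 (M1 minus M2 1.92 (95% interval 1.45 to 2.38, adjusted p = 1.76e-05)). Tnfsf14, a TNF family ligand, changed by -0.90 and -1.74 and Slamf9 by -0.57 and -1.43. Cd83, a surface marker of activated antigen-presenting cells, was -0.95 and -0.82 against M0 naive but 0.95 in M1 and 1.08 in M2 against M0 post-sepsis, the opposite direction.

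Chemokines, the attractants of leukocytes, had 6 shared higher and 2 shared lower members of 22, and 7 opposite ones. The shares over all genes were 3.32%, 4.9% and 3.21%. Ccl8 read 1.34, 0.64, 0.33 and 0.71 in M0 naive, 5.19, 5.0, 5.01 and 5.25 in M1 and 6.43, 6.03, 6.17 and 6.14 in M2, a rise in all 8 stimulated arrays that was larger in M2. Against M0 post-sepsis it was 6.97 in M1 and 8.05 in M2. Cxcl9, an attractant of T cells known as an interferon-gamma target, rose by 7.40 in M1 and 2.42 in M2.

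The monocyte attractants Ccl7, Ccl2 and Ccl12 depended on the control. Ccl7 read 1.64, 1.22, 0.88 and 1.29 in M0 naive and 5.44, 6.14, 5.32 and 6.30 in M0 post-sepsis, against 6.23, 6.18, 6.39 and 6.49 in M1 and 4.94, 4.29, 5.02 and 4.97 in M2. The M2 arrays were above all M0 naive and below all M0 post-sepsis arrays. Ccl2 was 5.73 and 2.58 against M0 naive but 1.46 in M1 and -1.69 in M2 against M0 post-sepsis, and Ccl12 was 2.50 and 2.95 against M0 naive but -1.73 in M1 and -1.27 in M2 against M0 post-sepsis. Ccl4, by contrast, was lower against both, by -1.66 and -2.69 against M0 naive and -2.21 in M1 and -3.25 in M2 against M0 post-sepsis.

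Of 19 receptors for chemoattractants 6 were shared lower, 2 shared higher and 4 opposite, beside 4.9%, 3.32% and 3.21% of all genes. The counts of shared ones were the same in every fit without 1 array. Against M0 post-sepsis 3 of the 19 were shared lower and 3 shared higher. Cx3cr1, the receptor of fractalkine, read 1.90, 1.43, 0.60 and 1.25 in M0 naive, -4.13, -3.88, -4.22 and -4.12 in M1 and -5.05, -3.48, -4.32 and -4.69 in M2. The stimulated arrays overlapped each other and lay wholly below M0 naive, with changes of -5.38 (SE 0.33, adjusted p = 1.50e-07) and -5.68 (SE 0.33, adjusted p = 4.16e-07) and M1 minus M2 of 0.30 (95% interval -0.43 to 1.03, adjusted p = 0.536). C5ar1, the receptor of complement C5a, changed by -2.97 and -3.77, and Ccr2, the receptor of Ccl2, by -3.55 and -1.49. Ccr3 changed by -4.09 and -2.69, and Cxcr3, the receptor of Cxcl9, by -0.91 and -4.09. Against M0 post-sepsis Ccr3 was -0.33 in M2 and Cxcr3 -0.49 in M1, and neither of these changes passed. Cxcr4 was -1.79 and -0.77, but 0.14 in M1 and 1.16 in M2 against M0 post-sepsis.

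The 2 receptors that rose were Ccr1 and Ltb4r1. Ccr1, which binds several chemokines including Ccl7, read -3.51, -3.24, -3.58 and -2.92 in M0 naive, 0.91, 1.11, 0.62 and 0.82 in M1 and -0.76, -0.63, -0.24 and -0.29 in M2. Ltb4r1, the receptor of leukotriene B4, rose by 3.28 (SE 0.19, adjusted p = 7.48e-08) and 3.11 (SE 0.19, adjusted p = 4.94e-07), with no difference between the states that passed (0.17 (95% interval -0.24 to 0.58, adjusted p = 0.527)).

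Among the 14 shared lower genes described, ranked in the same way, Cx3cr1 came first. Fcrl1 is a member of the Fc receptor-like family best known from B cells. It read 0.03, -0.20, -0.88 and -0.25 in M0 naive, -6.28, -6.09, -6.04 and -6.42 in M1 and -5.64, -5.99, -6.13 and -6.55 in M2, where no array was well above background. It was at least 16.23-fold lower in M1 and 17.4-fold lower in M2. Markers of B cells summed to 4.4 to 5.84 in M0 naive, 1.82 to 4.46 in M1 and 1.73 to 4.06 in M2, with Ighm well above background on no array, and their part in the Fcrl1 result was not tested.

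Pcp4l1, a relative of the calmodulin-binding gene Pcp4, differed between the states: it read 4.37, 4.17, 3.59 and 4.11 in M0 naive, -6.07, -4.52, -5.77 and -5.28 in M1 and -0.83, -1.17, -0.73 and -1.04 in M2. It was at least 318.3-fold lower in M1 and changed by -5.00 (SE 0.3, adjusted p = 4.94e-07) in M2. Arap3, a regulator of Arf GTPases, changed in both, -5.09 (SE 0.21, adjusted p = 4.61e-09) in M1 and -4.95 (SE 0.21, adjusted p = 2.48e-08) in M2.

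Gpr34, a receptor for lysophosphatidylserine, was at least 27.16-fold lower in M1 and changed by -3.93 in M2, and Gm5086 was at least 46.75-fold lower in M1 and changed by -3.73 in M2. The orphan receptor gene Gpr162 changed by -4.79 and -3.51. F13a1, the A chain of coagulation factor XIII, changed by -5.37 and -3.05. The tetraspanin Tspan33 changed by -3.09 and -2.99, with 1 of 4 M1 arrays well above background.

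Against M0 post-sepsis 10 of the 14 were shared lower again, and Adgre4, Apoc1, Cd5l and Lrrc14b were not. The apolipoprotein gene Apoc1 was -3.73 and -3.05 against M0 naive but -0.65 in M1 and 0.03 in M2 against M0 post-sepsis. Lrrc14b was at least 28.39-fold lower in M1 and -3.03 in M2 against M0 naive, and 0.10 in M2 against M0 post-sepsis. Adgre4, an adhesion receptor of the F4/80 family, was at least 13.74-fold lower in M1, and it read -0.53, -0.55, -0.80 and -0.38 in M0 naive but -4.82, -5.27, -5.67 and -6.29 in M0 post-sepsis.

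**Figure D4:**
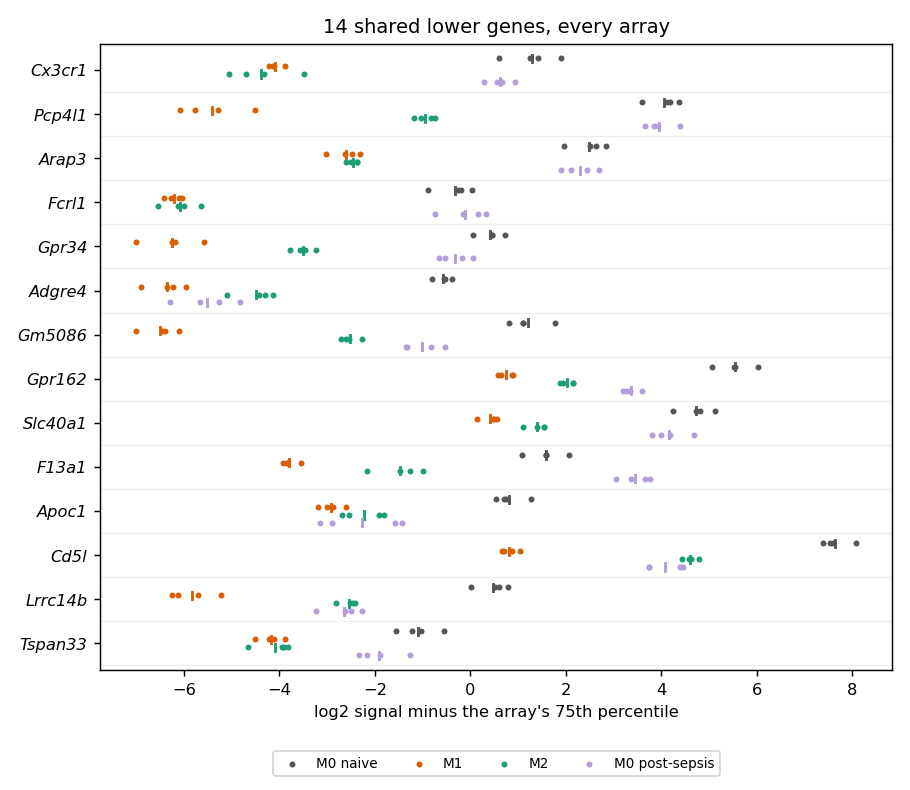
The 14 shared lower genes described, ordered by their smaller change (bounds for genes below background) from the top. Each point is 1 array (4 per group), the short bar is the group mean, and the horizontal axis is the log2 signal minus the array's 75th percentile. M1 and M2 points lie to the left of M0 naive for every gene, and for Fcrl1 they were not well above background, as were the M1 points of Pcp4l1, Gpr34, Adgre4, Gm5086 and Lrrc14b. The M0 post-sepsis arrays of Adgre4 lie among the stimulated ones, and those of Apoc1, Cd5l and Lrrc14b lie among or beside the M2 ones.

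Several genes of resting macrophages were lower in both states than in M0 naive. In the macrophage identity list 6 of 22 were shared lower and none shared higher, the median mean change being -0.48. Against M0 post-sepsis 4 of the 22 were shared higher and 2 shared lower. Maf, a transcription factor of mature macrophages, read 5.14, 5.59, 4.65 and 4.98 in M0 naive, 2.06, 1.43, 1.16 and 1.45 in M1 and 2.54, 2.47, 2.95 and 2.94 in M2, with no overlap of stimulated and unstimulated arrays. Aif1, an actin-binding protein, changed by -1.50 and -2.22 and Fcgr1, the high-affinity IgG receptor, by -0.91 and -3.55. Trem2, a lipid-sensing receptor, was -2.47 and -0.48 and the transcription factor Irf8 -0.53 and -0.56. The M2 call was lost in 10 of 12 fits without 1 array for Trem2 (adjusted p up to 0.128, without M2 replicate 4) and in 11 of 12 for Irf8 (0.112, without M0 naive replicate 2). Against M0 post-sepsis Aif1 was 0.58 in M1 and -0.14 in M2, Fcgr1 0.62 in M1 and -2.02 in M2 and Irf8 0.30 in M1 and 0.27 in M2, so of the 6 only Maf (-3.41 in M1 and -2.21 in M2) and Cx3cr1 were again lower in both.

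Of 20 genes for the uptake of dead cells and lipids, 5 were shared lower, 1 shared higher and 7 opposite, 5 of these higher in M2. Stab1, a scavenger receptor, read 5.74, 5.32, 4.60 and 4.99 in M0 naive, 3.55, 3.15, 3.15 and 3.35 in M1 and 2.48, 2.28, 2.07 and 2.20 in M2. Gas6, which bridges dying cells to phagocytes, changed by -5.34 and -1.83, and its receptor Axl by -1.83 and -3.04. Cd5l, a secreted scavenger protein, changed by -6.83 and -3.04. Against M0 post-sepsis Stab1 (-3.19 in M1 and -4.23 in M2) and Gas6 (-5.86 in M1 and -2.35 in M2) were again lower, while Axl was 1.07 in M1 and -0.13 in M2 and Cd5l -3.26 in M1 and 0.53 in M2. Lrp1, a large endocytic receptor, was -0.83 and -0.77 and did not pass with its probes averaged (-0.75 and -0.29). Olr1, a receptor for oxidized lipoprotein, went the other way, at least 1.202-fold higher in M1 and 6.854-fold higher in M2.

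Apoe, the main lipid carrier made by macrophages, changed by -5.66 in M1 and -1.58 in M2, and Lpl, a secreted lipase, by -4.59 and -0.63, the M2 call of Lpl being lost in 5 of 12 fits without 1 array (adjusted p up to 0.0743, without M0 naive replicate 1). The complement genes C1qa and C1qc were -4.76 and -4.0 in M1 but -0.71 and -0.49 in M2, and the M2 call of C1qc was lost in 11 of 12 such fits (adjusted p up to 0.104, without M0 naive replicate 2). In M2 neither was lower against M0 post-sepsis (0.36 and 0.35). Among pattern receptors 5 of 22 were shared lower and none higher, for example Clec12a, an inhibitory lectin, at least 5.487-fold lower in M1 and -2.60 in M2, Cd180 at -1.22 and -0.96, and Tlr7, which senses RNA, at -2.75 and -0.82. Against M0 post-sepsis 3 of the 22 were shared higher and 2 shared lower, and Tlr7 was 0.50 in M2 and did not pass.

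All 21 mitosis genes tested were lower in M1 and 12 of them also in M2, and none was higher in either. Their median changes were -3.42 and -0.74. Over all genes 17.8% were lower in M1, 12.1% in M2 and 4.9% in both. Tk1, a thymidine kinase of dividing cells, read 3.28, 2.88, 2.23 and 2.81 in M0 naive, -2.87, -3.11, -2.68 and -2.72 in M1 and 1.32, 1.08, 1.20 and 0.90 in M2. Cdk1, the kinase that drives mitosis, read 2.32, 2.46, 1.80 and 2.38 in M0 naive, -0.72, -0.67, -1.12 and -0.70 in M1 and 1.03, 1.20, 1.40 and 1.66 in M2. For both genes the M2 arrays lay between the others, and M1 minus M2 was -3.97 (95% interval -4.43 to -3.51, adjusted p = 3.39e-08) for Tk1 and -2.12 (95% interval -2.54 to -1.70, adjusted p = 3.56e-06) for Cdk1. In such bulk samples fewer dividing cells and less RNA per cell cannot be told apart.

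Plk1, another mitotic kinase, changed by -4.08 and -0.87, Bub1, a spindle checkpoint kinase, by -3.72 and -0.91, Cenpe, a motor of the kinetochore, by -3.12 and -1.25, and the proliferation marker Mki67 by -2.40 and -0.74. In the DNA replication list 5 of 25 were shared lower, Tk1, Pole at -4.69 and -1.19, Mcm6 at -2.20 and -1.04, Mcm10 at -3.36 and -1.01, and Cdc6 at -2.64 and -1.0, the M2 call of Cdc6 being lost in 7 of 12 fits without 1 array (adjusted p up to 0.0933, without M0 naive replicate 2). The mitosis count in M2 depended on the scaling and on the M0 naive arrays. With median centring 2 mitosis genes and 3 replication genes were shared lower, without M0 naive replicate 1 the count was 7 and without M0 naive replicate 3 it was 16, and the replication count went from 4 to 11 with the same arrays left out. Against M0 post-sepsis all 21 mitosis genes and 20 of 25 replication genes were shared lower, beside 5.43% of all genes.

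Genes of glycolysis and low oxygen had 8 shared higher members of 28 and 1 shared lower, and 16 passed in M1 alone. Against M0 post-sepsis 2 were shared higher. Ak4, a mitochondrial adenylate kinase, read -4.18, -3.44, -3.11 and -3.66 in M0 naive, 3.93, 3.80, 3.84 and 4.18 in M1 and -0.22, -0.54, -0.28 and -0.21 in M2. Against M0 post-sepsis it was 2.65 in M1 and -1.60 in M2, higher in M1 and lower in M2. Slc2a1, the glucose transporter GLUT1, was 4.22 and 0.80, Ero1a, an oxidase of protein folding, 3.74 and 1.56, and Pfkp, a phosphofructokinase, 1.72 and 1.56. Of these 4, Pfkp alone was shared higher against M0 post-sepsis (1.11 in M1 and 0.95 in M2). Ldha, lactate dehydrogenase, and the enolase gene Eno1 were 0.49 and 0.73 in M2 against M0 naive and -0.87 and -0.37 against M0 post-sepsis, and the M2 call of Ldha was lost in 3 of 12 fits without 1 array (adjusted p up to 0.0675, without M2 replicate 4). Slc2a3, another glucose transporter, fell in both (-0.86 and -1.39).

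Slc7a11, which imports cystine for glutathione synthesis, read -5.23, -5.04, -4.13 and -4.39 in M0 naive, 1.04, 1.51, 1.14 and 1.61 in M1 and -0.39, -0.49, -0.78 and -0.56 in M2. All stimulated arrays were above all M0 arrays, M0 post-sepsis included. Nqo1, a quinone reductase and target of the oxidative stress factor NRF2, rose by 2.40 and 2.72. Hmox1, which degrades haem, was 3.56 and 2.12 with overlapping arrays, and its M2 call was lost in 6 of 12 fits (adjusted p up to 0.0941, without M2 replicate 3). Slc40a1, the iron exporter ferroportin, read 5.13, 4.73, 4.24 and 4.80 in M0 naive, 0.56, 0.46, 0.13 and 0.49 in M1 and 1.55, 1.11, 1.53 and 1.40 in M2, lower in all stimulated arrays. In all, 4 of the 18 NRF2 and iron genes were shared higher and 1 shared lower.

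Genes of prostaglandin and leukotriene metabolism split evenly, 4 of 19 shared higher and 4 shared lower. Hpgd, which inactivates prostaglandins, was at least 6.893-fold lower in M1 and 7.39-fold lower in M2, with no M1 or M2 array well above background. Ptger2, a receptor of prostaglandin E2, rose by 1.54 and 2.08, while another of its receptors, Ptger4, changed by -3.16 and -1.42. Hpgds, which makes prostaglandin D2, changed by -2.29 and -2.21, and Alox5, the first enzyme of leukotriene synthesis, was at least 3.92-fold lower in M1 and changed by -1.28 in M2. Pla2g4a, which releases arachidonic acid, rose by 2.48 and 0.82. Against M0 post-sepsis Pla2g4a was -0.98 and Ptger4 1.22 in M2, each the reverse of its sign against M0 naive. Hpgds was -0.92 in M1 and -0.85 in M2 against that control and passed in neither. Of the 19 genes 3 were then shared higher and 2 shared lower.

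Of the immediate early and MAPK feedback genes 7 of 24 were shared higher and 2 lower. Ier3, a stress-induced survival gene, rose by 3.84 and 2.49, Klf4, a transcription factor, by 3.76 and 1.96, and Dusp4, a phosphatase of MAP kinases, by 2.77 and 2.09. The AP-1 subunits Junb and Fosl2 rose by 2.32 and 1.89 in M1 and 1.10 and 1.43 in M2. Fos, another AP-1 subunit, was -1.50 and -1.57 against M0 naive and 0.94 in M1 and 0.87 in M2 against M0 post-sepsis, and Egr1 -2.33 and -0.79 against -1.30 in M1 and 0.25 in M2.

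Matrix proteases had 5 shared higher members of 20 and no lower one. Mmp12, macrophage elastase, read -0.89, -0.71, -0.66 and -0.42 in M0 naive, 0.93, 1.21, 1.33 and 1.23 in M1 and 4.61, 3.89, 4.82 and 4.50 in M2, in that order without overlap. Mmp13, a collagenase, rose by 2.21 and 3.39, and Plaur, the receptor of urokinase, by 2.86 and 1.61. Against M0 post-sepsis the M1 changes of Mmp12 and Mmp13 were 0.36 and 0.89 and did not pass, while in M2 they were 3.64 and 2.07.

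**Figure D5:**
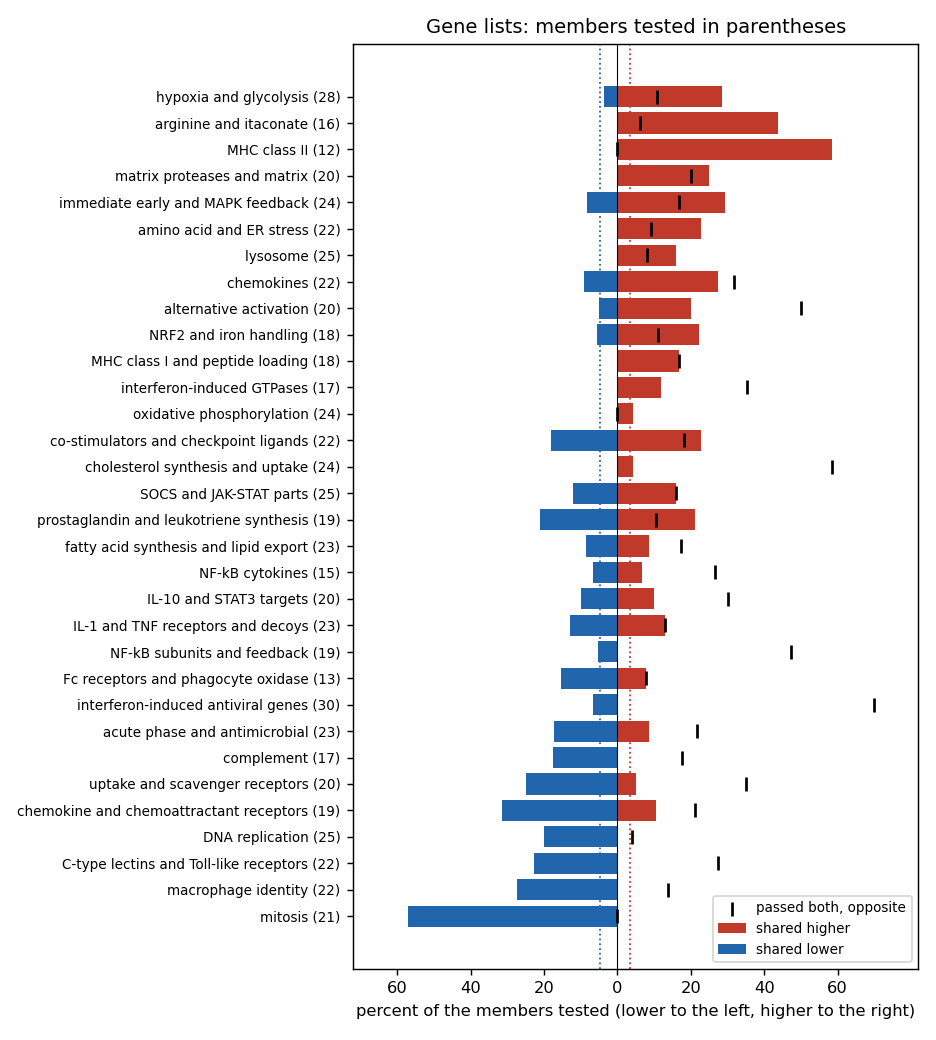
Gene lists with the percent of their tested members that were shared lower (blue, to the left) or shared higher (red, to the right), with the number tested in parentheses. Black ticks give the percent that passed in both states with opposite signs. Dotted lines give the percent over all 30208 genes, with or without a symbol (3.32% higher and 4.9% lower). MHC class II and arginine genes reach furthest to the right and mitosis genes to the left, while interferon-induced antiviral and cholesterol genes are mostly opposite. All percents are against M0 naive.

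Several pathways usually linked to either state were opposite and not shared. Of 30 interferon-induced antiviral genes, 21 were opposite, all higher in M1, and 2 were shared lower, beside 3.21% and 4.9% of all genes. Of 24 cholesterol genes 14 were opposite, all higher in M2, and of 19 NF-kB subunits and feedback genes 9 were opposite, all higher in M1. These counts depended on the control. Against M0 post-sepsis 8 of the 24 cholesterol genes were shared lower and none higher, beside 5.43% and 3.51% of all genes. Of the 30 antiviral genes 3, and of the 19 NF-kB genes 4, were then shared higher, and none lower. Among the single genes with the widest opposite changes were the complement factor Cfb (6.47 and -3.62), the chemokine Cxcl10 (4.92 and -3.58) and the cytokine Il1b (8.30 and -3.48) and, the other way, Bex1 (at least 9.802-fold lower in M1 and 7.77 in M2), Atp6v0d2, a proton pump subunit (-3.38 and 3.97), and Mgll, a lipase (-3.35 and 3.88). Cfb was higher in both states against M0 post-sepsis (11.35 in M1 and 1.25 in M2).

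A shared direction did not mean an equal size. Over the 1004 shared higher genes the median change was 1.32 in M1 and 0.91 in M2, and M1 minus M2 passed at 458 genes with the larger rise in M1, at 121 with the larger rise in M2 and did not pass at 425. Over the 1480 shared lower genes the medians were -1.27 and -1.0, and the counts were 511, 113 and 856. For comparison, M1 minus M2 passed at 36.2% of all genes. The widest difference on the M1 side was at the chemokine Cxcl3, below background in M0 naive and at least 452.8-fold higher in M1, with 1 of 4 M2 arrays well above background, and its M2 call was lost in 5 of 12 fits without 1 array (adjusted p up to 0.0661, without M2 replicate 1). Il1a, which encodes IL-1 alpha, was at least 526.6-fold higher in M1, with 2 of 4 M2 arrays well above background.

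Ptgs2, the inducible cyclooxygenase, was 10.75 in M1 and 2.41 in M2, Inhba, the activin A chain, 9.83 and 1.83, and Procr, the protein C receptor, 8.20 and 0.89. On the M2 side stood Rnase2a, a secreted ribonuclease, which read -2.18, -2.35, -2.50 and -2.69 in M0 naive, -1.52, -1.41, -1.54 and -1.18 in M1 and 7.10, 6.83, 6.99 and 7.01 in M2. Its M1 change of 1.02 (SE 0.15, adjusted p = 1.64e-04) was small beside that of M2, 9.41 (SE 0.15, adjusted p = 1.59e-11). At the other end, Plk3, a stress-responsive kinase, rose by 1.6 and 1.61, with M1 minus M2 of -0.0011 (95% interval -0.41 to 0.41, adjusted p = 0.997), and Hdac6, a cytoplasmic deacetylase, changed by -0.65 and -0.65, with M1 minus M2 of 0.00096 (95% interval -0.30 to 0.30, adjusted p = 0.996).

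Marker genes of neutrophils and progenitors were also among the shared lower genes. In the neutrophil list 3 of 13 were shared lower and 1 (Mmp8) shared higher. Camp, an antimicrobial peptide of neutrophil granules, read 1.14, 1.29, 1.29 and 1.33 in M0 naive, -0.89, -0.60, -0.57 and -0.57 in M1 and 0.06, 0.26, -0.64 and -0.61 in M2. Ltf, lactoferrin, was at least 63.06-fold lower in M1 and changed by -1.18 in M2, and Retnlg was at least 13.09-fold lower in M1 and changed by -1.58 in M2. S100a9 changed by -8.26 and -1.46 and its partner S100a8, the other chain of calprotectin, by -1.32 and -1.51. Against M0 post-sepsis, S100a8 (0.63 in M1 and 0.45 in M2) was not lower in either state and Ltf (-3.67 in M1 and 1.26 in M2) was higher in M2. Kit, a receptor of progenitors and mast cells, was at least 3.04-fold lower in M1 and changed by -2.15 in M2, and the progenitor marker Cd34 was -2.20 and -1.73, its M2 call being lost in 9 of 12 fits without 1 array (adjusted p up to 0.0941, without M2 replicate 1). The part of residual neutrophils or progenitors in the shared lower genes was not tested.

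Since every shared gene rests on the same 4 M0 naive arrays, each was also set against the 4 M0 post-sepsis arrays, which share the 8 stimulated arrays but not the control. By the same rule 2701 genes (8.94%) were then shared, 1060 (3.51%) higher and 1641 (5.43%) lower. These calls came from the fit of 16 arrays, in which M0 naive as the control gave 1542 shared genes, 581 higher and 961 lower. The counts that follow set them beside calls of the 12-array fit, so a change of control and a change of fit are mixed. Of the 1004 genes shared higher against M0 naive, 400 were shared higher again, 245 passed in M1 alone, 75 in M2 alone, 260 in neither, 17 were opposite and 7 were shared lower. Of the 1480 shared lower, 607 were shared lower again, 288 passed in M1 alone, 110 in M2 alone, 440 in neither, 17 were opposite and 18 were shared higher. Both M0 groups are unstimulated, and how far sepsis in the donor mice or other differences between these culture groups account for the genes that changed class cannot be told apart.

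The 3 slides each held arrays of all 3 groups. Within every slide the shared genes kept their direction in M1 and M2 for 995 of 1004 higher and 1471 of 1480 lower genes. The 8 stimulated arrays lay wholly above the 4 M0 naive arrays at 904 of the shared higher genes and wholly below at 1292 of the shared lower genes. Over all genes such separation was seen at 3.46% upward and 5.61% downward. The same 12 arrays chose the shared genes, so these counts describe them and are no further support. Of the shared genes with a symbol 527 had more than 1 usable probe, and at 208 of these every probe was in the same class, while at 134 some probe had the other sign in M1 or M2.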

How the data were processed

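The members of the comparison and the gene lists were chosen with earlier results of these data known. Each sample was hybridised in 1 colour (Cy3, 100 ng of RNA) to an Agilent mouse array of 62976 spots. The deposited scanner files hold the authors' processed signal, a linear intensity already corrected for background, with a flag for spots well above background. They name Feature Extraction 10.7.3.1 per the file headers and 12.5 per the submitters' processing notes. The authors' normalized values were not used.

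The intensity of 59305 spots that were not controls was taken as log2 minus each array's 75th percentile, and spots marked as outliers were left out, which left 21 of the tested genes with a missing array. Spots of a probe were averaged, a probe had to be well above background on at least 3 of 4 arrays of at least 1 group, and the brightest probe stood for a gene. Names came from the RefSeq table (GRCm38.p6) by accession (27737 probes), symbol (3349) or synonym (313), and probes with no symbol were kept singly. With 55681 probes and 4 arrays per group, the number of arrays limits the precision.

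A fit with limma 3.58.1 (R 4.3.3) over the 12 arrays gave M1 and M2 against M0 naive, their mean against M0 naive and M1 minus M2, two-sided with Benjamini-Hochberg adjustment. Shared means adjusted p under 0.05 in M1 and in M2 with the same sign. M0 post-sepsis was compared in a fit of 16 arrays. Where a group had no array well above background, the fold is a bound ("at least"), the mean of the brighter group against the higher of the dim values and the lowest signal among probes well above background. A value printed for such a gene in another form is the fitted difference. The procedure was tested on simulated data.

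Genes were named by a rule: the 15 shared genes each way with the largest smaller change (by the bound where a group was below background) among those whose 8 stimulated arrays lay on 1 side of the M0 naive arrays, up to 6 shared members of each list, the genes with the widest opposite change, and those with the widest or smallest M1 minus M2. Some that the rule allows are not named, among them 1 of the 15 shared lower genes, which is not reported here. The shared list members Ifnar1, Gch1, H2-DMb1, Slamf9, Tnfsf14, Cd83, Cxcr3, Cxcr4, Slc2a1, Ldha, Eno1, Pla2g4a, Egr1 and Mki67 lie beyond it and were chosen after their values were seen, and Socs3, Bcl3, Ccl17, Ccl24, Chil3 and Retnla are list members named as not shared. Alternatives were other background corrections, scalings, filters and probe rules, the slide or the replicate number as a block, an intensity trend, 16 arrays in the fit and each array left out in turn.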

Additional observations from a re-analysis of the deposited data

Results flagged for a closer look

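In 22 of 477 pairs of a named gene and a group, 1 of the 4 arrays stood apart by Dixon's test (its gap to the nearest array over the whole range), near the 1 in 20 that chance gives. Ccl7 was 4.29 in M2 replicate 2, against 4.94 to 5.02 in the other arrays, and Slamf6 was -3.47 in M0 naive replicate 1, against -4.14 to -4.05 in the other arrays. Slamf6 was -2.59 in M2 replicate 2, against -2.01 to -1.90 in the other arrays, and Ccl2 was 9.02 in M1 replicate 4, against 8.69 to 8.74 in the other arrays. Ccl12 was 1.5 in M2 replicate 2, against 1.66 to 1.69 in the other arrays, and Cxcr3 was 0.56 in M1 replicate 1, against 0.17 to 0.23 in the other arrays. Eno1 was 6.00 in M0 naive replicate 3, against 6.57 to 6.63 in the other arrays, and Hpgds was -0.68 in M2 replicate 2, against 0.14 to 0.29 in the other arrays. Alox5 was -4.10 in M2 replicate 4, against -3.55 to -3.46 in the other arrays, and Ptger4 was 0.41 in M0 naive replicate 4, against -0.15 to -0.08 in the other arrays. Ier3 was 0.42 in M0 naive replicate 3, against 0.79 to 0.86 in the other arrays, and Clec12a was -5.28 in M2 replicate 1, against -4.32 to -4.15 in the other arrays. Cdk1 was -1.12 in M1 replicate 3, against -0.72 to -0.67 in the other arrays, and Bub1 was -1.99 in M2 replicate 2, against -1.38 to -1.26 in the other arrays. Cdc6 was -2.34 in M0 naive replicate 3, against -1.72 to -1.63 in the other arrays, and Cdc6 was -3.50 in M1 replicate 1, against -4.83 to -4.78 in the other arrays. S100a9 was 7.08 in M0 naive replicate 3, against 7.26 to 7.27 in the other arrays, and Camp was -0.89 in M1 replicate 1, against -0.60 to -0.57 in the other arrays. Kit was -2.06 in M0 naive replicate 1, against -3.03 to -2.90 in the other arrays, and Chil3 was 2.43 in M0 naive replicate 3, against 2.57 to 2.59 in the other arrays. Retnla was -0.01 in M1 replicate 4, against -0.45 to -0.41 in the other arrays, and Tspan33 was -4.66 in M2 replicate 2, against -3.95 to -3.81 in the other arrays. M2 replicate 2 was the array set apart for 6 of these, M0 naive replicate 3 for 5, M1 replicate 1 for 3, and every other array for at most 2.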

How the results depend on the processing

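Each alternative was run on the counts of called genes and on 318 changes of 159 named genes. No shared member of any gene list changed sign under normexp correction, quantile normalization, median centring or slide as a fixed block, and no gene of the 2484 was called shared in the other direction under any alternative that kept M0 naive as the control. Normexp correction with an offset of 50 left 512 shared genes of at least 2-fold in place of 895. Median centring gave 1339 shared genes in place of 2484 (of which 1316 were in the same class as before), 3627 in place of 5959 for M2, 521 in place of 971 opposite and 614 in place of 1203 shared genes with M1 different from M2. It moved the share of higher genes from 40.3% to 52.1% for the mean of both states, from 38.7% to 50% for M2 and from 37.3% to 50.7% for shared genes of at least 2-fold. With 16 arrays in the fit there were 1542 shared genes, 3549 for M2 and 747 for M1 against M2. The changes themselves were the same in both fits, with medians over all genes of -0.11 in M1 and -0.07 in M2. Only the estimate of the spread, which takes in the added arrays, differed, and what made the spread differ was not tested. The other alternatives kept these counts within 1.5 times. Requiring all 12 arrays well above background left part of the named genes untested, and values within a slide have no test. Leaving out single arrays gave 1724 to 2945 shared genes, 783 to 1055 of at least 2-fold, 6551 to 8661 for the mean, 4062 to 6790 for M2 and 708 to 1070 opposite, lowest without M0 naive replicate 2 (for the 2-fold count, replicate 1) and highest without M0 naive replicate 3. With M0 post-sepsis as the control there were 2701 shared genes, also in the fit of 16 arrays.

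Deviations from the group means correlated above 0.1 in 3 of 12 pairs with the same replicate number and in 14 of 36 pairs with different numbers. Between M0 naive and M1 the same-numbered arrays correlated at 0.614, 0.107, 0.705 and 0.0802 for replicates 1 to 4. Same-numbered pairs with M2 ran from -0.528 to 0.0854, so the numbers did not pair M2 with the other groups. The replicate block gave 2580 shared genes, 2314 of them in the same class, and among named genes it ended the M2 call of C1qc (adjusted p = 0.0522). Slide as a fixed block gave 2253 shared genes, and the correlation within slides was -0.07.

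Calls of named genes were lost for 31 changes with median centring, named in the report, for 13 with 16 arrays in the fit (in M1 Irf8 and Retnla, in M2 Tyk2, Ifnar1, Arg2, H2-T23, Trem2, Irf8, Lpl, C1qa, C1qc, Cd34 and Gbp8) and for 12 with no filter on dim probes (in M1 Irf8, in M2 Tyk2, Ifnar1, Gch1, Ldha, Hmox1, Trem2, Irf8, Lpl, C1qc, Cdc6 and Cd34). Normexp correction ended 6, slide as a fixed block 5 and as a random block 4, and quantile normalization 2. Averaging over probes ended 6 without a change of sign, and also the call of Ifnar1 in M1, which changed sign.

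Among named genes, Ifnar1 in M1 went to 0.042 with probes averaged. Against M0 post-sepsis, the control and not the processing being changed, these changes had the other sign: in M1, Il10ra 0.55, Cd83 0.95, Ccl12 -1.73, Cxcr4 0.14, Fos 0.94, Aif1 0.58, Irf8 0.30, Fcgr1 0.62, Axl 1.07, S100a8 0.63, Retnla 4.95, Creld2 -0.45, Cp 2.60, Scd2 -3.98; and in M2, Ccl7 -1.0, Adgre4 1.03, Il10ra 0.26, Cd83 1.08, Ccl2 -1.69, Ccl12 -1.27, Cxcr4 1.16, Ak4 -1.60, Slc2a1 -0.52, Ldha -0.87, Eno1 -0.37, Hmox1 -0.22, Pla2g4a -0.98, Ptger4 1.22, Fos 0.87, Egr1 0.25, Trem2 0.12, Irf8 0.27, Cd5l 0.53, C1qa 0.36, C1qc 0.35, Tlr7 0.50, S100a8 0.45, S100a9 0.53, Ltf 1.26, Cfb 1.25, Socs3 0.62, Bcl3 0.67, Creld2 -0.079, Cp 3.11, Scd2 -1.12, Apoc1 0.026, Lrrc14b 0.10.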

Other observations

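Further shared genes lay outside the groups described. Beside the list counts here stand 3.32% shared higher and 4.9% shared lower over all genes. Of 25 lysosome genes 4 were shared higher and none lower, among them the proteases Ctsk, at 1.29 in M1 and 2.95 in M2 (Ctsk is also an osteoclast marker, and the osteoclast list was highest in M2), and Ctsz, which rose in both, by 0.91 and 0.92. For Ctsz, M1 minus M2 was -0.0063 (95% interval -0.39 to 0.38, adjusted p = 0.983). Of 22 amino acid and endoplasmic reticulum stress genes 5 were shared higher and none lower, but against M0 post-sepsis 3 were shared higher and 7 shared lower. Dnajb9, a co-chaperone of that compartment, rose by 0.76 and 0.88, also against M0 post-sepsis (0.94 in M1 and 1.06 in M2), whereas Creld2 was 0.83 and 1.20 against M0 naive and -0.45 in M1 and -0.079 in M2 against M0 post-sepsis.

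Of 17 interferon-induced GTPases, 2 were shared higher, Gbp2 at 6.63 and 1.5 and Gbp8 at 5.01 and 0.91, both also against M0 post-sepsis (8.61 in M1 and 3.49 in M2, and 7.00 in M1 and 2.90 in M2), where 11 of the 17 were shared higher. Gbp2 read 2.58, 2.37, 1.72 and 2.46 in M0 naive and 3.98, 3.63, 3.83 and 3.68 in M2. Il4i1, a secreted amino acid oxidase, rose by 0.69 and 4.17. The lipid desaturase Scd2 and the copper protein Cp had opposite signs against the 2 unstimulated groups. Scd2 was 1.07 and 3.93 against M0 naive but -3.98 in M1 and -1.12 in M2 against M0 post-sepsis. Cp was -1.77 and -1.26 against M0 naive but 2.60 in M1 and 3.11 in M2 against M0 post-sepsis.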
